A study of Mus musculus with 42 samples.

Results

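Nuclear factor erythroid 2-related factor 2 (NRF2, encoded by Nfe2l2), its repressor Keap1 and 8 target genes were examined in liver RNA of 42 C57BL6/N mice aged 25 months. The 10 genes were chosen by symbol (Nfe2l2, Keap1, Nqo1, Gclc, Gclm, Hmox1, Srxn1, Gsr, Ephx1 and Abcc4), and every probe that the platform annotation names after one of them was taken. Of these 10 genes, 8 had such a probe, with 4 probes for Keap1, 3 for Srxn1 and 1 for each of the others. Gsr and Abcc4 matched no probe of that table and were not analysed here. The 13 probes are set against 12719 tested probes of 8903 named genes. The groups were 11 females and 12 males fed 14 ppm of encapsulated rapamycin (Rapa), an inhibitor of the kinase mTOR, from 19 months of age for 6 months, and 9 females and 10 males fed the same chow with empty Eudragit capsules (control). Each mouse gave 1 Illumina Mouse Ref8 microarray of whole liver, with no sorting of cells, so the number of arrays limits the precision.

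NRF2 is a transcription factor of the cap'n'collar family that switches on genes for antioxidant and detoxifying proteins. In unstressed cells KEAP1, an adaptor of the CUL3 ubiquitin ligase, binds NRF2 and has it degraded by the proteasome. Electrophiles and oxidants modify cysteines of KEAP1, NRF2 then escapes degradation, pairs with small MAF proteins and binds antioxidant response elements (AREs) near its targets. NRF2 is therefore controlled largely at the protein level, which RNA does not measure, and its targets are read in liver as a response to drugs and oxidants.

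The promoters are shown because AREs are what these genes are known to share. RefSeq windows (GRCm38.p6) from 250 bases before to 50 after the start site were found for 7 of the 10 genes, with 8 windows in all, and not for Gclc, Hmox1 and Gsr. The ARE core TGACNNNGC, searched on both strands, was in the windows of 4 of these 7 genes (Nfe2l2, Gclm, Srxn1 and Abcc4), beside 12.4% of all 32851 windows of the same length. Stretches of 40 bases are given 5′ to 3′ on the strand of the gene. Capitals mark the core, read on the gene's strand in Nfe2l2 (from position -240 counted from the start site) and on the opposite strand in Gclm (from position -134), and in Srxn1 they mark a match to the shorter core TGANNNNGC from position -45.
Nfe2l2, chr2:75704874-75704913, minus strand: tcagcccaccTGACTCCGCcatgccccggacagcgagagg
Gclm, chr3:122245408-122245447, plus strand: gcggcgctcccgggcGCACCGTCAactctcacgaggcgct
Srxn1, chr2:152105464-152105503, plus strand: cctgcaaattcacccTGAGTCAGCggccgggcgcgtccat
The Srxn1 match overlaps the AP-1 motif TGANTCA, which 7.81% of all windows hold, and the TGACNNNGC match of Srxn1 lies after the start site, from position 29 on the opposite strand. The shorter core TGANNNNGC was in 5 of the 7 genes, with Keap1 added, and in 41.3% of all windows. No match was found in the windows of Nqo1 and Ephx1, which says only that these letters are not in those windows.

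Levels are log2 signals after quantile normalization, and a ratio is the log2 difference of group means with its standard error (SE). A probe passed the test at an adjusted p under 0.05 (limma, Benjamini-Hochberg over the 12719 tested probes) and an absolute log2 ratio over 0.15, which is 1.11-fold. A probe was taken as detected on an array at a detection p under 0.05. Of the 13 probes, 11 were detected on all 42 arrays. Nqo1 was detected in 8 of 9 control females and in all other mice. The dimmest Srxn1 probe (ILMN_1229994) was detected in 9 of 11 Rapa females, 5 of 9 control females, 9 of 12 Rapa males and 10 of 10 control males.

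Across all arrays the median signal was 111 to 154 in Rapa females, 111 to 152 in control females, 159 to 188 in Rapa males and 146 to 172 in control males. Arrays of control females 6 to 9 stood apart: over the 9720 probes that no array detected, they correlated with each other at an r of at least 0.373, and other pairs of arrays reached at most 0.294. Females of both diets also split by the median signal of their arrays. Rapa females 1 to 4 had medians of 111 to 122, like control females 1 to 5 with 111 to 124, while Rapa females 5 to 11 had 142 to 154, like control females 6 to 9 with 142 to 152. Rapa females 5 to 11 were also apart in the 5th percentile of their signal, with 102 to 108 beside 76.5 to 89.7 for the other females. Results in females are therefore given without control females 6 to 9 where that changes the call or moves the value by over 1.5 times. Leaving them out sets control females 1 to 5, with the lower medians, against Rapa females of which 5 to 11 had the higher medians. Diet and array signal are then not separated. All 6 hepatocyte markers examined, Alb and Hnf4a among them, were detected in each group. Neither slide nor hybridization batch of an array is given in the sources used here.

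With 6 months of Rapa, 1 of the 13 probes fell in females and 1 in males, both of them probes of Keap1, and none rose. In females 21.6% of all tested probes passed the test in either direction and 9.37% were lower. In males 0.653% of all tested probes passed and 0.464% were lower. The 13 ratios ran between -0.48 and 0.37 in females, with a median of 0.05 beside 0.02 for all tested probes. In males they ran between -0.29 and 0.18, with a median of 0.07 beside 0.00 for all tested probes. Nfe2l2 and the 6 measured targets therefore gave no call in either sex. In whole liver, fewer cells of a type and less RNA per cell cannot be told apart. No member had Rapa and control groups that did not overlap, which 1.79% of tested probes had in females and 0.0472% in males.

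**Figure D1:**
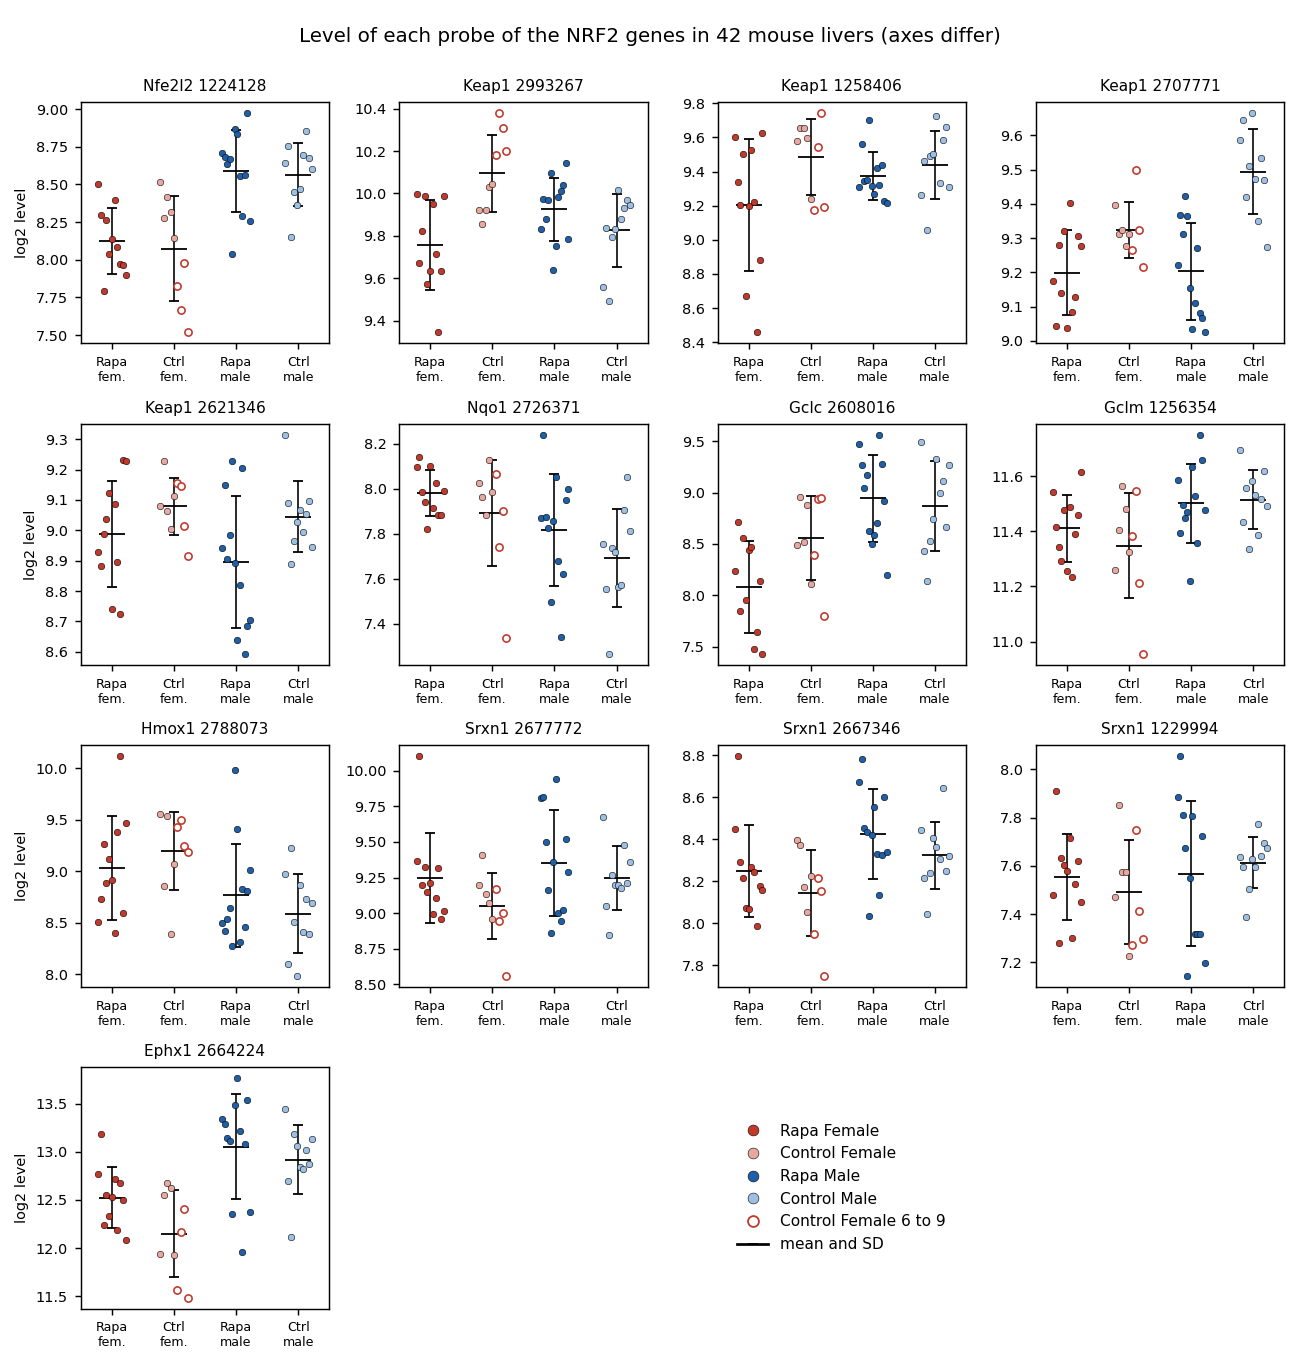
Log2 level (vertical axis) of each of the 13 probes in every mouse, in Rapa females, control females, Rapa males and control males; points are mice, the bars are the mean and SD, and open circles are control females 6 to 9. Keap1 probe ILMN_2707771 was lower in 12 of 12 Rapa males than the control male mean, Keap1 probe ILMN_2993267 was lower in 11 of 11 Rapa females than the control female mean, and Nfe2l2 was higher in males than in females on both diets.

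Nfe2l2 itself gave no call with Rapa, and the diets differed by less than the spread of the mice. Its level in Rapa females had a lowest value of 7.79, a median of 8.09 and a highest of 8.51, against 7.52, 8.15 and 8.52 in control females. In Rapa males the lowest, median and highest were 8.04, 8.65 and 8.98, against 8.15, 8.62 and 8.85 in control males. The groups of each sex overlapped over nearly their whole range. The log2 ratio was 0.05 in females (SE 0.12, 95% interval -0.18 to 0.28, adjusted p = 0.803) and 0.02 in males (SE 0.11, interval -0.20 to 0.25, adjusted p = 0.961). In control females 6 to 9 Nfe2l2 was at 7.52 to 7.98, below all of control females 1 to 5 at 8.15 to 8.52, and without control females 6 to 9 the ratio in females was -0.21 (SE 0.12, adjusted p = 0.334).

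Of the 4 Keap1 probes, 1 passed as lower with Rapa in each sex, a different probe in females and in males. Neither call held under all of the alternatives given below. All 4 Keap1 probes are assigned to the same RefSeq transcript by the platform annotation, and all 4 had ratios below 0 in females, as had 3 of the 4 in males. Probe ILMN_2993267 had a lowest level of 9.35, a median of 9.72 and a highest of 10.00 in Rapa females, against 9.86, 10.04 and 10.38 in control females. Rapa females 1, 4, 7 and 11 lay within the range of the controls and the other 7 below it. The log2 ratio was -0.34 (SE 0.08, adjusted p = 0.00188), and 11 of 11 Rapa females were below the control mean. In males the same probe was at 9.64, 9.97 and 10.14 with Rapa, against 9.49, 9.86 and 10.02 on the control diet. Its ratio in males was 0.10 (SE 0.08, adjusted p = 0.645). The difference of the Rapa effect, female minus male, passed the test at -0.44 (SE 0.11, adjusted p = 0.00391), the only one of the 13 probes to do so beside 20.4% of all tested probes.

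The call of ILMN_2993267 in females rested on control females 6 to 9. These mice had the 4 highest control levels, 10.18 to 10.38, and control females 1 to 5 were at 9.86 to 10.04. Without them the ratio was -0.20 (SE 0.09, adjusted p = 0.201) and the difference between the sexes was -0.30 (SE 0.12, adjusted p = 0.108). Between Rapa females 1 to 4 and control females 1 to 5 the ratio was -0.08 (SE 0.10, adjusted p = 0.838). With arrays centred on their median in place of quantile normalization the ratio was -0.24 in females (adjusted p = 0.0858) and the difference between the sexes -0.11 (adjusted p = 0.533). Over all 42 mice, after each group's mean was subtracted, the level of this probe fell as the number of detected probes on the array rose (r = -0.64, permutation p = 2e-05; rho = -0.60, permutation p = 7e-05; adjusted p = 0.00104 and 0.00273 over 156 relations). Within the groups r was -0.81 in Rapa females, -0.85 in control females, -0.52 in Rapa males and -0.38 in control males, and it was -0.65 without the 2 arrays farthest from the median number of detected probes. The part of the number of detected probes in the Keap1 ratio was not tested.

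Keap1 probe ILMN_2707771 carried the call in males. Its lowest, median and highest levels were 9.02, 9.19 and 9.42 in Rapa males, against 9.27, 9.49 and 9.67 in control males. Rapa males 1 and 6 to 12 were below every control male, the other 4 lay within the control range, and 12 of 12 were below the control mean. The log2 ratio was -0.29 (SE 0.05, adjusted p = 0.00917), or 18.2% lower. In females the probe was at 9.04, 9.17 and 9.40 with Rapa, against 9.22, 9.31 and 9.50 on the control diet. Its ratio in females was -0.13 (SE 0.06, adjusted p = 0.103), and 10 of 11 Rapa females were below the control mean. It was -0.12 without control females 6 to 9 (adjusted p = 0.306). The difference between the sexes was 0.17 (SE 0.08, adjusted p = 0.13). It passed only with median centring (0.44, adjusted p = 0.00642), where 31.5% of all tested probes were higher. The male call held without Rapa males 6 and 7 (-0.27, adjusted p = 0.0252) and when any 1 mouse was left out (-0.31 to -0.27, adjusted p of at most 0.0307). It also held with median centring (-0.50, adjusted p = 0.00138), where 18.5% of all tested probes were lower in males. It was among the 4 calls left of 83 in males when runs of neighbouring animal numbers were taken as a random block (-0.30, adjusted p = 0.0339), and it was lost when 3 principal components of the never-detected probes were fitted (-0.23, adjusted p = 0.427). No tested probe at all passed in males under the latter fit.

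The other Keap1 probes gave no call. Probe ILMN_1258406 averaged 9.20 ± 0.39 in Rapa females (SD, n = 11) and 9.49 ± 0.22 in control females (SD, n = 9), a ratio of -0.28 (SE 0.11, adjusted p = 0.0626). In males it averaged 9.37 ± 0.14 with Rapa (SD, n = 12) and 9.44 ± 0.20 on the control diet (SD, n = 10), with an adjusted p of 0.862. The ratio in females was -0.34 without control females 6 to 9 (adjusted p = 0.121). Probe ILMN_2621346 had a ratio of -0.09 in females (adjusted p = 0.391) and of -0.11 without control females 6 to 9 (adjusted p = 0.549). In males its ratio was -0.15 (SE 0.07, adjusted p = 0.362). The ratio in males passed with median centring (-0.34, adjusted p = 0.00788), where 18.5% of all tested probes were lower. The probes went in pairs from mouse to mouse. ILMN_2993267 varied with ILMN_1258406 (r = 0.60, permutation p = 0.00018; rho = 0.53, permutation p = 0.00096), and ILMN_2707771 with ILMN_2621346 (r = 0.72, rho = 0.76, each with permutation p = 1e-05, the smallest that 100000 resamples can give). Adjusted over 78 pairs, the p-values were 0.001 and 0.00499 for the first pair and 0.000142 and 0.00026 for the second. Across the pairs r was between 0.16 and 0.26. For the first pair r was 0.46 without the 2 mice farthest from the median, -0.21 within control females, and 0.73 over all groups without control females 6 to 9. For the second pair r was 0.73 both without the 2 farthest mice and without control females 6 to 9. The sources used here do not give where on the transcript each probe lies.

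**Figure D2:**
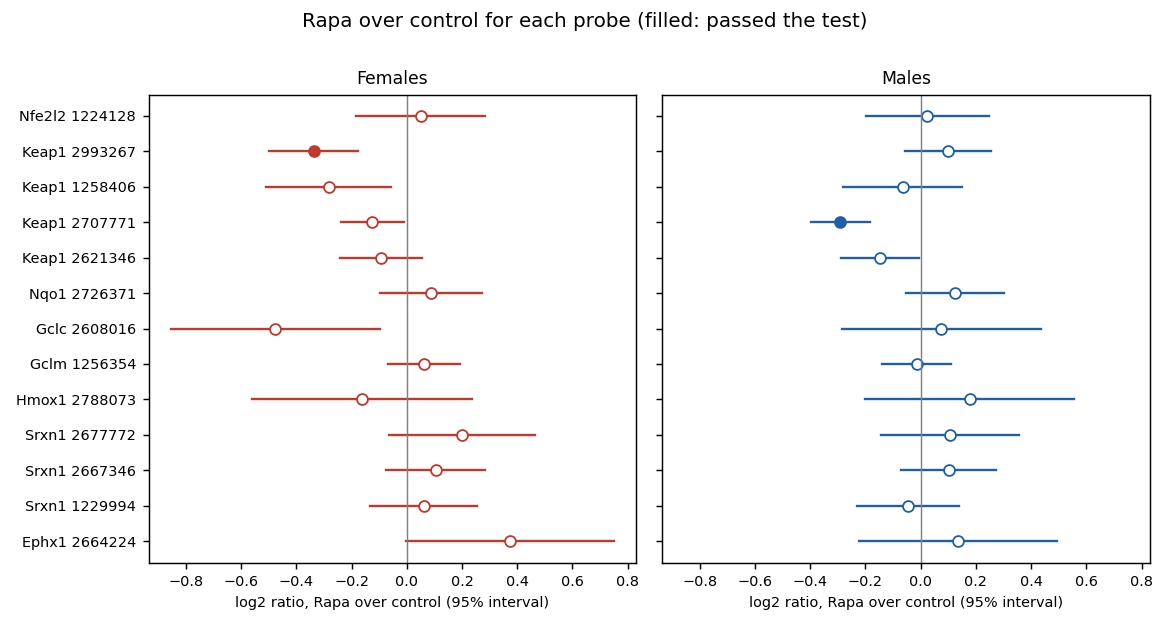
Log2 ratio of Rapa over control (horizontal axis) with its 95% interval for each of the 13 probes, in females and in males; filled points passed the test. Keap1 probe ILMN_2993267 passed in females at -0.34 and Keap1 probe ILMN_2707771 in males at -0.29, and the other 12 points of each sex did not pass.

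The glutathione genes showed no call with Rapa. Gclc and Gclm encode the catalytic and the modifier subunit of glutamate-cysteine ligase, the first step of glutathione synthesis. Gclc had a lowest level of 7.43, a median of 8.14 and a highest of 8.72 in Rapa females, against 7.80, 8.52 and 8.95 in control females. Although 9 of 11 Rapa females were below the control mean, the groups overlapped over most of their range. The ratio was -0.48 (SE 0.19, adjusted p = 0.0609) and -0.51 without control females 6 to 9 (SE 0.22, adjusted p = 0.175). In males Gclc was at 8.20, 8.98 and 9.57 with Rapa, against 8.14, 8.87 and 9.49 on the control diet, a ratio of 0.07 (SE 0.18, adjusted p = 0.915). The difference of the Rapa effect between the sexes was -0.55 (SE 0.26, adjusted p = 0.13). Gclm averaged 11.41 ± 0.12 in Rapa females (SD, n = 11) and 11.35 ± 0.19 in control females (SD, n = 9). In males Gclm averaged 11.50 ± 0.14 with Rapa (SD, n = 12) and 11.52 ± 0.11 on the control diet (SD, n = 10). Its ratio was 0.06 in females (95% interval -0.07 to 0.19, adjusted p = 0.527) and -0.01 in males (interval -0.14 to 0.11, adjusted p = 0.96). Leaving out control females 6 to 9 gave a ratio of 0.00 in females (SE 0.07, adjusted p = 0.989).

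The quinone, peroxiredoxin and epoxide enzymes were likewise without a call. Nqo1, the NAD(P)H quinone reductase that is a standard readout of NRF2, was at 7.82, 7.98 and 8.14 in Rapa females (lowest, median, highest), against 7.34, 7.96 and 8.13 in control females. In males Nqo1 was at 7.34, 7.86 and 8.24 with Rapa, against 7.27, 7.73 and 8.05 on the control diet. The groups overlapped, and the ratios were 0.09 in females (SE 0.09, adjusted p = 0.533) and 0.12 in males (SE 0.09, adjusted p = 0.602). For Nqo1 in females the ratio was -0.02 without control females 6 to 9 (SE 0.10, adjusted p = 0.954). Srxn1, sulfiredoxin, which reactivates overoxidized peroxiredoxins, had ratios of 0.20, 0.10 and 0.06 in females by its 3 probes and of 0.11, 0.10 and -0.05 in males, with adjusted p-values of 0.284 or more. The ratios in females were 0.09, 0.00 and 0.01 without control females 6 to 9 (adjusted p of 0.812, 0.993 and 0.969). Its brightest probe (ILMN_2677772) had a lowest level of 8.96, a median of 9.20 and a highest of 10.10 in Rapa females, against 8.56, 9.07 and 9.41 in control females. Rapa female 2 had the highest level and lay above all other females by that probe. Ephx1, the microsomal epoxide hydrolase, was at 12.08, 12.53 and 13.19 in Rapa females, against 11.48, 12.17 and 12.68 in control females. Of the Rapa females 10 of 11 were above the control mean, with a ratio of 0.37 (SE 0.19, adjusted p = 0.144). Without control females 6 to 9 the Ephx1 ratio was 0.18 (SE 0.22, adjusted p = 0.72). In males Ephx1 averaged 13.05 ± 0.54 with Rapa (SD, n = 12) and 12.92 ± 0.36 on the control diet (SD, n = 10), with an adjusted p of 0.818.

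Hmox1 encodes heme oxygenase-1, which breaks down heme and in liver is abundant in macrophages that clear red cells. Hmox1 was at 8.40, 8.91 and 10.11 in Rapa females (lowest, median, highest), against 8.39, 9.25 and 9.55 in control females. In males it was at 8.28, 8.59 and 9.98 with Rapa, against 7.98, 8.60 and 9.22 on the control diet. Rapa female 9 and Rapa male 6 were the highest of their groups, and the groups overlapped in both sexes. The ratios were -0.16 in females (SE 0.20, adjusted p = 0.598) and 0.18 in males (SE 0.19, adjusted p = 0.756). The ratio in females was -0.05 without control females 6 to 9 (SE 0.25, adjusted p = 0.948).

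Hmox1 followed the macrophage markers from mouse to mouse. Of 11 markers of Kupffer cells and macrophages, 8 had a probe. After each group's mean was subtracted, Hmox1 rose with the summed level of these 8 markers over 42 mice (r = 0.85, rho = 0.81, each with permutation p = 1e-05, adjusted p = 0.00078 and 0.00156 over 156 relations). Within the groups r was 0.96 in Rapa females, 0.68 in control females, 0.83 in Rapa males and 0.89 in control males, and r was 0.77 without the 2 mice farthest from the median. Hmox1 also rose with the neutrophil markers (r = 0.58, adjusted p = 0.00156; rho = 0.61, adjusted p = 0.00208; 0.57 without the 2 farthest mice) and with those of T and NK cells (r = 0.50, adjusted p = 0.0109; rho = 0.57, adjusted p = 0.00338; 0.51 without the 2 farthest mice). The part of these markers in the level of Hmox1 was not tested. Slc11a1 (r = 0.88), a metal transporter of phagocytes, and C1qb (r = 0.85), a complement subunit made by macrophages and a member of that marker list, were the 2 genes most like Hmox1 of all tested.

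**Figure D3:**
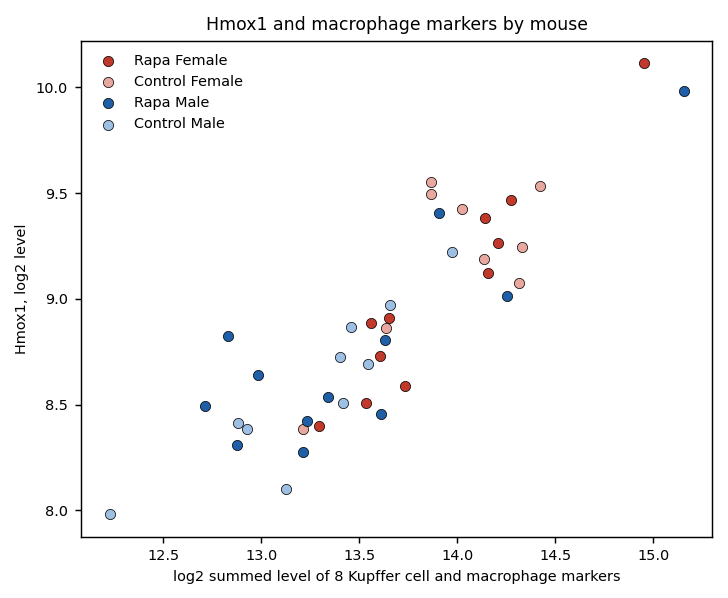
Hmox1 log2 level (vertical axis) against the log2 summed level of 8 Kupffer cell and macrophage markers (horizontal axis) in 42 mice; each point is a mouse, coloured by group. Mice of all 4 groups lie along 1 band, and within-group r ran between 0.68 and 0.96.

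More of the probes passed between the sexes than between the diets, as was so among all tested probes. In control mice, 6 of the 13 probes differed between males and females, 4 of them higher and 2 lower in males, where 40.2% of all tested probes passed the same threshold, 22.5% higher and 17.7% lower. In Rapa mice 3 of the 13 differed, all higher in males, where 32.2% of all tested probes passed and 15.8% were higher. No member had male and female groups that did not overlap, which 6.48% of tested probes had in control mice and 2.69% in Rapa mice. The arrays of the sexes also differed on probes that no array detected: of these 9720 probes, normalized among themselves, 4.58% passed in control mice and 4.27% in Rapa mice, beside 0.144% for Rapa in females and 0.36% for Rapa in males. The median signals given above did not overlap between Rapa males and Rapa females, and without slide labels sex and array batch cannot be told apart.

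Nfe2l2 and Ephx1 were higher in males on both diets. Nfe2l2 averaged 8.56 ± 0.21 in control males (SD, n = 10) and 8.07 ± 0.35 in control females (SD, n = 9), a log2 ratio of 0.49 (SE 0.12, adjusted p = 0.000906), higher in 10 of 10 males than the female mean. It averaged 8.59 ± 0.27 in Rapa males (SD, n = 12) and 8.12 ± 0.22 in Rapa females (SD, n = 11), a ratio of 0.47 (SE 0.11, adjusted p = 0.000787, 11 of 12). Without control females 6 to 9 the ratio in control mice was 0.23 (SE 0.12, adjusted p = 0.167) and did not pass, and the ratio in Rapa mice does not involve these mice. Ephx1 differed by 0.77 in control mice (SE 0.19, adjusted p = 0.00115, 9 of 10) and by 0.53 in Rapa mice (SE 0.17, adjusted p = 0.0152, 9 of 12). Without control females 6 to 9 the first was 0.58 (adjusted p = 0.0498), and without Rapa males 6 and 7 the second was 0.42 (adjusted p = 0.0611) and with median centring 0.37 (adjusted p = 0.2). When 3 principal components of the never-detected probes were fitted, no sex difference passed and the ratios turned below 0, to -2.16 (SE 0.63) for Nfe2l2 and -1.69 (SE 1.13) for Ephx1 in control mice. That fit left none of the 5107 calls for sex in control mice, and the SE of Nfe2l2 there rose from 0.12 to 0.63. It therefore cannot decide on these sex differences.

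Gclc differed between the sexes in Rapa mice. Its level was 8.94 ± 0.42 in Rapa males (SD, n = 12) and 8.08 ± 0.45 in Rapa females (SD, n = 11), which is 1.82-fold (log2 ratio 0.86, SE 0.17, adjusted p = 0.000159), and 12 of 12 males were above the female mean. In control mice it was 8.87 ± 0.44 in males (SD, n = 10) and 8.56 ± 0.41 in females (SD, n = 9), a ratio of 0.31 (SE 0.19, adjusted p = 0.192). Since the difference between these ratios is the interaction given above (adjusted p = 0.13), the sex difference of Gclc is not shown to depend on the diet.

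Hmox1 was lower in control males, at 8.59 ± 0.39 (SD, n = 10), than in control females, at 9.20 ± 0.38 (SD, n = 9), with a ratio of -0.61 (SE 0.20, adjusted p = 0.0134) and 9 of 10 males below the female mean. Of the 8 Kupffer cell and macrophage markers 5 were lower in control males too, and the log2 summed level of the list was 12.23 to 13.98 in control males and 13.21 to 14.42 in control females. The part of these markers in the Hmox1 ratio was not tested. Without control females 6 to 9 the ratio was -0.49 (SE 0.25, adjusted p = 0.144), with median centring it was -0.44 (adjusted p = 0.059), and in Rapa mice it was -0.27 (SE 0.18, adjusted p = 0.262), or -0.46 without Rapa males 6 and 7 (adjusted p = 0.0313). In Rapa mice 1 of the 8 markers was lower in males, and the summed level was 12.72 to 15.16 in Rapa males and 13.30 to 14.96 in Rapa females. The other calls in control mice were Gclm at 0.17 (SE 0.07, adjusted p = 0.0387), Keap1 probe ILMN_2707771 at 0.17 (SE 0.06, adjusted p = 0.0165) and Keap1 probe ILMN_2993267 at -0.27 (SE 0.08, adjusted p = 0.00768). None of these passed without control females 6 to 9: Gclm was at 0.11 (adjusted p = 0.266) and ILMN_2993267 at -0.13 (adjusted p = 0.32), while ILMN_2707771 had the same ratio of 0.17 with fewer mice (adjusted p = 0.066). Nqo1 then passed at -0.30 (adjusted p = 0.0259) against -0.20 with all mice (adjusted p = 0.0852).

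Among mice of the same group, Nfe2l2 varied with Nqo1, Srxn1 and Ephx1. With Gclc, Gclm and Hmox1 its r was 0.35, 0.21 and -0.11, with permutation p-values of 0.0858, 0.428 and 0.627 after adjustment. Of 69 pairs of probes of different genes, 16 correlated positively and 2 negatively at an adjusted p under 0.05 (permutation within groups, adjusted over 78 pairs). The share of such pairs among other tested probes was not computed, so these counts are not shown to be particular to the members. The permutations took the mice of a group as exchangeable, although arrays of females split by signal, so the p-values may be too small. Nfe2l2, Nqo1, Srxn1 and Ephx1, grouped after their values were seen, held 12 of the 16 positive pairs, with a median r of 0.64 (11 of the 12 also by rho). Nfe2l2 and Ephx1 had an r of 0.69 (permutation p = 1e-05) and a rho of 0.63 (permutation p = 5e-05), with adjusted p-values of 0.000142 and 0.00065. Their r was 0.67 in Rapa females, 0.60 in control females, 0.90 in Rapa males and 0.45 in control males. It was 0.63 without the 2 mice farthest from the median and 0.69 without control females 6 to 9. For Nfe2l2 and Nqo1 r was 0.59 (permutation p = 9e-05) and rho 0.50 (permutation p = 0.00142), with adjusted p-values of 0.000585 and 0.00692, an r of 0.46 without the 2 mice farthest from the median and an r of 0.52 without control females 6 to 9.

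Keap1 gave no such pair. None of its 36 pairs with another gene was positive at an adjusted p under 0.05, the median r was 0.02, and r with Nfe2l2 was between -0.13 and 0.27. The 2 negative pairs were Hmox1 with Keap1 probes ILMN_2993267 (r = -0.42, adjusted p = 0.0315; rho = -0.28, adjusted p = 0.224) and ILMN_1258406 (r = -0.41, adjusted p = 0.0354; rho = -0.36, adjusted p = 0.0905). Neither passed by rho, and r was -0.26 and -0.29 without the 2 mice farthest from the median, but -0.55 and -0.43 without control females 6 to 9. For ILMN_2993267 r was -0.51 in Rapa females, 0.24 in control females, -0.74 in Rapa males and -0.46 in control males. For ILMN_1258406 it was -0.52, -0.10, -0.55 and -0.43 in the same groups. Gclm had no pair at an adjusted p under 0.05. Gclc went with Ephx1 (r = 0.42, adjusted p = 0.0269) and the 3 Srxn1 probes (r = 0.40 to 0.54), although in Rapa males its r with Ephx1 was -0.08.

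**Figure D4:**
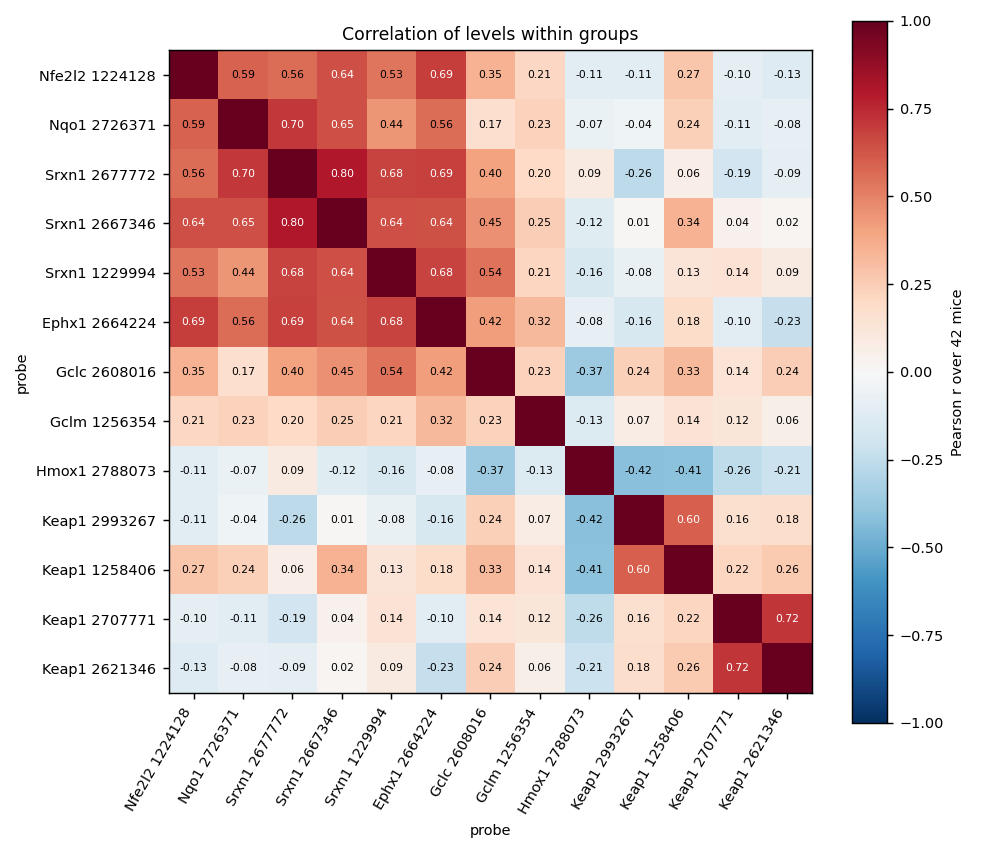
Pearson r between the levels of each pair of the 13 probes over 42 mice after each group's mean was subtracted; rows and columns are probes, red is positive and blue negative. Nfe2l2, Nqo1, Srxn1 and Ephx1, grouped after their values were seen, form a block of positive r, with a median of 0.64 between genes. The 4 Keap1 probes form pairs with r of 0.60 and 0.72.

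Gclc was low where neutrophil markers were high (r = -0.71, permutation p = 1e-05; rho = -0.64, permutation p = 2e-05; adjusted p = 0.00078 and 0.00156). Within the groups r was -0.85 in Rapa females, -0.93 in control females, -0.53 in Rapa males and -0.50 in control males, and it was -0.65 without the 2 mice farthest from the median. Ephx1 went the same way (r = -0.52, adjusted p = 0.00754; rho = -0.46, adjusted p = 0.0373), though hardly in Rapa males (r = -0.06), and with r at -0.41 without the 2 farthest mice. The log2 summed level of the 8 neutrophil markers was 11.4 to 16.4 in Rapa females, 11.3 to 17.0 in control females, 11.7 to 14.8 in Rapa males and 10.8 to 15.6 in control males. None of these 8 markers passed with Rapa in either sex, and 6 were lower in males than in females on the control diet and 5 on the Rapa diet. The marker Ngp was detected in no control male. The part of these markers in the sex difference of Gclc and Ephx1 was not tested.

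Other members moved with these and other markers. Keap1 probe ILMN_1258406 was low where neutrophil markers were high (r = -0.65, adjusted p = 0.00156; rho = -0.63, adjusted p = 0.00338), with an r of -0.74 in control males and of -0.60 without the 2 farthest mice. Srxn1 probe ILMN_1229994 went the same way (r = -0.44, adjusted p = 0.0218; rho = -0.46, adjusted p = 0.0455; -0.39 without the 2 farthest mice). Nfe2l2 did so by r alone (r = -0.48, adjusted p = 0.0289; rho = -0.41, adjusted p = 0.139; -0.35 without the 2 farthest mice). Gclc was also low where Kupffer cell and macrophage markers were high (r = -0.50, adjusted p = 0.0206; rho = -0.48, adjusted p = 0.0275; -0.46 without the 2 farthest mice).

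Stellate cell markers, which mark the vitamin A-storing cells that can form scar tissue, rose with 3 of the targets' probes and with Nfe2l2. With their summed level Nfe2l2 had an r of 0.48 (adjusted p = 0.0218; rho = 0.55, adjusted p = 0.00513; 0.50 without the 2 farthest mice). Ephx1 had an r of 0.54 (adjusted p = 0.0218; rho = 0.50, adjusted p = 0.0239; 0.55 without the 2 farthest mice). For Srxn1 probe ILMN_2677772 r was 0.55 (adjusted p = 0.0146; rho = 0.51, adjusted p = 0.0234; 0.44 without the 2 farthest mice), and for ILMN_2667346 it was 0.48 (adjusted p = 0.0218; rho = 0.52, adjusted p = 0.014; 0.51 without the 2 farthest mice). Nqo1 fell with the markers of B and plasma cells by r alone (r = -0.51, adjusted p = 0.0387; rho = -0.22, adjusted p = 0.376), and its r was -0.13 without the 2 farthest mice. The part of these markers in the pairs of Nfe2l2, Nqo1, Srxn1 and Ephx1 was not tested.

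The 2 genes most like each member were taken by r over 42 mice after subtraction of group means. For Nfe2l2 they were the bile transporter Abcc2 (r = 0.79) and the alcohol dehydrogenase Adh1 (r = 0.74). For Ephx1 they were the glutathione transferases Gsta2 (r = 0.86) and Gsta1 (r = 0.82), for Srxn1 they were Gsta1 (r = 0.77) and Rps27l (r = 0.76), and for Nqo1 Wfdc1 (r = 0.77) and the glutathione transferase Gstm2 (r = 0.72). For Gclc they were Etfa (r = 0.84), a subunit of the mitochondrial electron transfer flavoprotein, and the glucuronosyltransferase Ugt2b34 (r = 0.82). The highest values for Keap1 were AI661453 (r = 0.75) and Sec14l2 (r = 0.71), and for Gclm Rasl11b (r = 0.62) and Nectin3 (r = 0.61). The points share their arrays, so these are descriptions.

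A list of 61 other genes of the pathway, of which 49 were tested by their brightest probe, was read beside the members. In Rapa females 5 of the 49 were higher and 8 lower, and in Rapa males none was higher and 2 were lower, beside 21.6% of all tested probes called in females and 0.653% in males. Without control females 6 to 9, none was higher and 4 were lower in females, beside 7.01% of all tested probes called. Between Rapa females 1 to 4 and control females 1 to 5, whose arrays had similar signals, 3 were lower, beside 1.71% of all tested probes called. With median centring 4 were higher and 4 lower in females, beside 11.4% of all tested probes higher and 6.93% lower, and 1 was higher and 10 lower in males, beside 0.126% higher and 18.5% lower. In females calls were made for 5 of 13 tested regulators of NRF2, 4 of 9 glutathione, thioredoxin and NADPH genes, 4 of 20 detoxification and transport genes and none of 7 heme, iron and other target genes. By a dimmer probe, though not by the brightest, the glutathione gene Gss was higher in females (0.28, adjusted p = 0.0311). The detoxification genes Gstp1 (-0.37, adjusted p = 0.0343) and Mgst1 (-0.32, adjusted p = 0.0121) were lower in the same way. The median ratios of these lists in females were 0.06, -0.26, -0.05 and -0.05, beside 0.02 for all tested probes. In males the medians were -0.02, 0.16, 0.18 and -0.03, beside 0.00 for all tested probes.

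Among the regulators, Bach1 had the lowest ratio in females. BACH1 is a repressor that competes with NRF2 for AREs. Bach1 averaged 8.41 ± 0.24 in Rapa females (SD, n = 11) and 9.29 ± 0.14 in control females (SD, n = 9), a ratio of -0.88 (SE 0.11, adjusted p = 2.15e-07, lower in 11 of 11). The ratio was also -0.88 without control females 6 to 9 (adjusted p = 4.55e-05), and it was -0.68 between Rapa females 1 to 4 and control females 1 to 5 (SE 0.17, adjusted p = 0.0353), where the difference between the sexes did not pass (-0.39, adjusted p = 0.349). In males it averaged 9.92 ± 0.15 with Rapa (SD, n = 12) and 10.21 ± 0.42 on the control diet (SD, n = 10), a ratio of -0.30 (SE 0.11, adjusted p = 0.212), and the difference between the sexes passed at -0.59 (adjusted p = 0.00661). With median centring the ratio was -0.82 in females (adjusted p = 3.55e-05) and -0.53 in males (adjusted p = 0.00641), beside 6.93% and 18.5% of all tested probes lower. The difference between the sexes then did not pass (-0.28, adjusted p = 0.234). Btrc, a subunit of another ligase that has NRF2 degraded (0.29, by 1 of its 2 probes), the autophagy adaptor Sqstm1, which binds KEAP1 (0.27), and Cul3, the scaffold of the KEAP1 ligase (0.22), were higher in Rapa females, with adjusted p-values of 0.000568, 0.0129 and 0.0154. Rbx1, the RING subunit of that ligase, named after its values were seen, was lower by 1 of its 2 probes (-0.19, adjusted p = 0.0238). None of these 4 passed without control females 6 to 9 (ratios of 0.17, 0.11, 0.10 and -0.15). In Rapa males Syvn1, a ubiquitin ligase of the endoplasmic reticulum, fell by 0.62 (SE 0.15, adjusted p = 0.0356, 11 of 12), and Ep300, a coactivator that acetylates NRF2, fell by 0.24 (SE 0.06, adjusted p = 0.0365, 12 of 12). Neither passed when runs of neighbouring animal numbers were taken as a random block (-0.62 and -0.23, adjusted p = 0.145 and 0.162) or when 3 principal components of the never-detected probes were fitted (-0.86 and -0.24, adjusted p = 0.313 and 0.474). The block left 4 of all 83 calls in males and the components left none, so these losses are not particular to the 2 genes.

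The thioredoxin genes fell in Rapa females. Txnrd1, cytosolic thioredoxin reductase, averaged 7.69 ± 0.13 in Rapa females (SD, n = 11) and 8.47 ± 0.25 in control females (SD, n = 9), a ratio of -0.78 (SE 0.08, adjusted p = 9.82e-10, lower in 11 of 11). Without control females 6 to 9 it was -0.62 (adjusted p = 1.07e-06), and between Rapa females 1 to 4 and control females 1 to 5 it was -0.60 (SE 0.10, adjusted p = 0.00085). In males Txnrd1 averaged 8.10 ± 0.17 with Rapa (SD, n = 12) and 7.83 ± 0.13 on the control diet (SD, n = 10), a ratio of 0.27 (SE 0.07, adjusted p = 0.0736). The difference between the sexes was -1.05 (SE 0.11, adjusted p = 3.07e-09) and -0.89 without control females 6 to 9 (adjusted p = 1.23e-07), and with median centring it was -0.91 (adjusted p = 7.93e-07). Txn1, thioredoxin, had a ratio of -1.01 in females by its brighter probe (SE 0.14, adjusted p = 9.49e-07, 11 of 11), of -0.71 without control females 6 to 9 (adjusted p = 0.00187), of -0.79 between Rapa females 1 to 4 and control females 1 to 5 (SE 0.17, adjusted p = 0.0111), and of 0.32 in males (adjusted p = 0.283). Its other probe was at -0.12 in females, within the threshold on the ratio. Prdx1, a peroxiredoxin, was lower by both probes (-0.26, adjusted p = 0.00236 by the brighter) and Tkt, a transketolase of the pentose phosphate pathway, by -0.34 (adjusted p = 0.0308), and neither passed by its brighter or single probe without control females 6 to 9 (-0.12 and -0.10). In males the lowest adjusted p-values of this list were those of Txnrd1 and of Taldo1, transaldolase (0.19, adjusted p = 0.22).

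**Figure D5:**
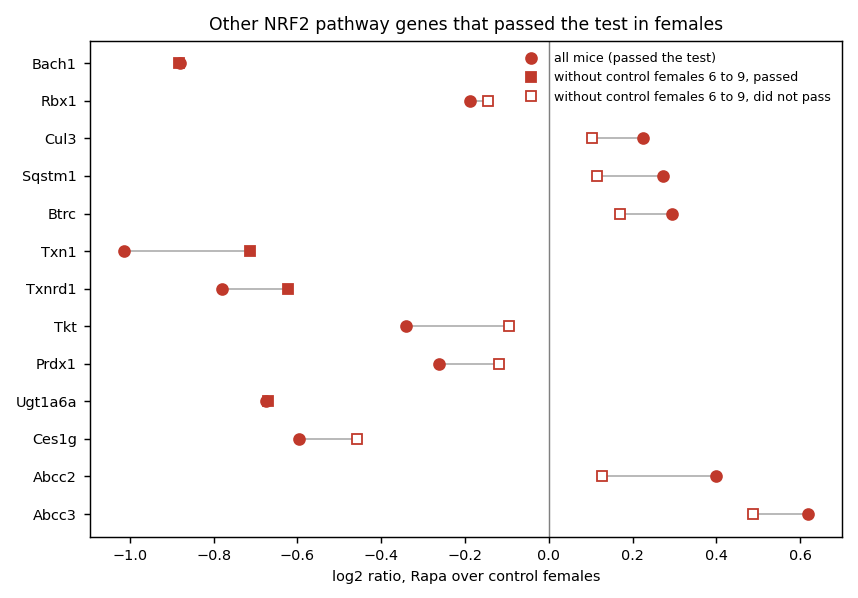
Log2 ratio of Rapa over control females (horizontal axis) for the 13 other pathway genes that passed the test in females; circles use all mice and squares leave out control females 6 to 9, filled where the test was still passed. Bach1, Txn1, Txnrd1 and Ugt1a6a passed both ways, at -0.88, -0.71, -0.62 and -0.67 without those 4 mice.

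Detoxification genes went both ways. The bile transporters Abcc3 (0.62, adjusted p = 0.0291) and Abcc2 (0.40, adjusted p = 0.0149, by 1 of its 2 probes) were higher in Rapa females, and the carboxylesterase Ces1g was lower (-0.60, adjusted p = 0.00857). None of the 3 passed without control females 6 to 9 (0.49, 0.13 and -0.46). The glucuronosyltransferase Ugt1a6a was lower by its brightest probe (-0.68, adjusted p = 0.003) and higher by its other 2 (0.43 and 0.44, adjusted p = 0.0167 and 0.00753). Between Rapa females 1 to 4 and control females 1 to 5 the brightest probe was at -0.68 (adjusted p = 0.174). Genes of the Ugt1a cluster share exons, so its direction is uncertain. In males no gene of this list passed, and those with the lowest adjusted p were the glutathione transferase Gstm3 (0.65, adjusted p = 0.0914, and 0.63 with median centring, adjusted p = 0.0177) and Ces1g (0.54, adjusted p = 0.109). Gstm3 was detected in 10 of 12 Rapa males and 5 of 10 control males. Of the heme, iron and other target genes none passed with Rapa, and those with the lowest adjusted p in females were the biliverdin reductases Blvrb (0.29, adjusted p = 0.054) and Blvra (-0.26, adjusted p = 0.067). In males they were Blvrb (-0.20, adjusted p = 0.427) and the ferritin heavy chain Fth1 (0.05, adjusted p = 0.807). Both were lower with median centring (-0.48 and -0.28, adjusted p = 0.0403 and 0.0103), where 18.5% of all tested probes were lower in males. Of the cell type markers, those lower in Rapa females were 1 of 8 of macrophages (Adgre1, -0.56), 2 of 4 of endothelium (Clec4g, -0.34, and Lyve1, -0.89), 1 of 5 of stellate cells (Col3a1, -0.56) and 2 of 6 of hepatocytes (Alb, -0.40, and Serpina1a, -0.31). In that order the adjusted p-values were 0.0482, 0.0461, 0.0455, 0.0331, 0.00421 and 0.00145, where 9.37% of all tested probes were lower. These markers were not read without control females 6 to 9. No marker passed in males, and the part of these markers in the pathway ratios was not tested.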

How the data were processed

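Liver RNA of 42 mice was hybridized to 1 Illumina Mouse Ref8 array each. The authors extracted probe intensities and deposited them without normalization for 25697 probes (lowest signal 51.4). Beside each intensity the authors deposited a detection score, a fraction, and 1 minus this score served as detection p. The authors also deposited log2 quantile-normalized values for 17082 probes, used here as an alternative. Symbols came from the platform annotation (16027 of these probes with 1 symbol, 1055 with none).

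Intensities were log2-transformed and quantile-normalized over all probes and arrays. The test, by limma 3.58.1 in R 4.3.3 (statmod 1.5.0), took the probes of the authors' normalized table that 9 or more arrays detected (p under 0.05). Means of the 4 groups were fitted on all arrays and p-values adjusted by Benjamini-Hochberg. The fit was tested on simulated data. Correlations were computed after subtraction of group means, with 100000 permutations within groups that took no account of the split of female arrays by signal.

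The members and lists were chosen with earlier results of these data known. All member probes were reported. Of each pathway list, the called genes of each sex were named, at most 4 and the most significant first, or 2 genes if there was no call, and the 2 genes most like each member's brightest probe. Alternatives covered normalization, background, filters, test, blocks, thresholds and mice left out. Replicate numbers name different mice and pair nothing.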

Additional observations from a re-analysis of the deposited data

Results flagged for a closer look

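The effect of Rapa on Keap1 probe ILMN_2993267 differed between the sexes by a test of the difference itself, by -0.44 on the log2 scale, female minus male (limma, SE 0.11, adjusted p = 0.00391), and by -0.30 without control females 6 to 9 (adjusted p = 0.108). Within groups of 9 or 10 mice, 26 sets of member levels were examined for a mouse apart from the others, of which chance marks about 1 in 20. By Keap1 probe ILMN_2621346, control male 1 was at 9.32, with the next control male at 9.10. By Nqo1, control female 9 was at 7.34, with the next control female at 7.74, and without this mouse Nqo1 passed in the sex comparison of control mice (-0.27, adjusted p = 0.0137). Groups of 11 and 12 mice were not examined in this way.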

How the results depend on the processing

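Counts of calls among the 13 probes were 1 in females, 1 in males, 1 for the difference between the sexes, 6 for sex in control mice and 3 for sex in Rapa mice. The count in females became 2 with background correction (Gclc added), 2 with array weights (Keap1 ILMN_1258406 added), 2 with principal components and 0 with median centring, without control females 6 to 9 and between Rapa females 1 to 4 and control females 1 to 5, mice of similar background. In males it was 2 with median centring, both lower, beside 18.5% of all tested probes lower. It was 0 with principal components and 0 with 1 probe per gene, since the called Keap1 probe is not the brightest. The difference between the sexes gave 3 calls with median centring, all higher (Gclm, Keap1 ILMN_2621346 and ILMN_2707771), beside 31.5% of all tested probes. It gave 0 without control females 6 to 9, between the mice of similar background and with principal components of background probes. Sex in control mice gave 2, 1 and 0 under those settings, and sex in Rapa mice 1 between the mice of similar background and 0 with principal components. When each mouse was left out, the counts ran between 1 and 3 in females, 1 and 1 in males, 1 and 1 for the difference, 4 and 6 for sex in control mice and 3 and 4 in Rapa mice. The female count was 2 or 3 without control female 5, 6 or 9 or Rapa female 1, 2, 4, 7 or 11, with Gclc or Keap1 ILMN_1258406 added (lowest adjusted p = 0.0262 and 0.0298). For sex in control mice, Gclm was lost without control male 1, 3, 5, 6 or 9 or control female 1, 5, 8 or 9 (adjusted p up to 0.124), Keap1 ILMN_2707771 without control male 5 (ratio 0.149), and Nqo1 was added without control male 9 or control female 9. For sex in Rapa mice, Keap1 ILMN_2993267 was added without Rapa male 6 or Rapa female 1, 4 or 11, and Srxn1 ILMN_2667346 without Rapa male 5 or Rapa female 2.

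When 3 principal components of the background (never-detected) probes were fitted, male over female ratios turned to -2.16 for Nfe2l2, 0.091 for Keap1 ILMN_2993267, -0.41 for Gclm and -1.69 for Ephx1 in control mice, and to -1.71 for Nfe2l2 and -1.33 for Ephx1 in Rapa mice, with SEs of 0.40 to 1.13, and the cause was not tested. No tested probe at all passed for sex in control mice under that fit. The replicate block, with numbers that name different mice, kept 1 call in females, 1 in males and 1 for the difference, gave 6 and 4 for sex, and took all calls in males to 38 of 83. Same-numbered mice correlated over 0.1 in 6 of 9 female and 6 of 10 male pairs. Their r ran between -0.37 and 0.49 in females and between -0.50 and 0.32 in males. In 1 pair of each sex the Rapa mouse was most like the control mouse of its own number.

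Median centring moved the median of all ratios to -0.13 in males and 0.19 for the difference, with 16 higher and 2354 lower calls in males (24 and 59 before), 4003 and 672 for the difference (1511 and 1082), 4736 and 1465 for sex in control mice (2856 and 2251), and 1241 and 2360 in Rapa mice (2015 and 2077). All calls in females, 2747, were 1778 over the probes that all arrays detected, 1822 with weighted arrays, 892 without control females 6 to 9 and 218 between mice of similar background. The 83 in males were 30, 491, 170 and 194 under these settings, 134 and 146 with looser filters, 51 without Rapa males 6 and 7, 4 with the block of animal numbers, 0 with principal components and 28 to 97 when a mouse was left out. The 2593 for the difference were 1562, 1139, 537 and, with principal components, 558. The 5107 for sex in control mice were 2638, 3267 and 0, and the 4092 in Rapa mice were 2596, 2695 and 313. ARE matches were in 5 genes with the shorter core and 3 before the start site. Of the 49 other pathway genes, 13 were called in females, 4 without control females 6 to 9, 3 between mice of similar background, 11 with principal components, 12 with the block of animal numbers and 8 with median centring, and 2, 3, 3, 0, 0 and 11 in males, under alternatives chosen after seeing the data.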
